A study of Mus musculus with 8 samples.

Results

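Fibrillar collagens are the collagens that assemble into the long, banded fibres of connective tissue. The 10 genes described here encode chains of types I, II, III, V, XI, XXIV and XXVII, and were taken by gene symbol from a table of read counts for 18824 genes in mouse lung. They are Col1a1, Col1a2, Col2a1, Col3a1, Col5a1, Col5a2, Col5a3, Col11a1, Col24a1 and Col27a1. The series concerns SLC15A3, a peptide and histidine transporter of the endolysosomal membrane, in pulmonary fibrosis. Of its 8 RNA sequencing libraries, 4 came from lungs of Slc15a3-/- mice given bleomycin (KO_BLM) and 4 from lungs of wild-type (WT) mice given bleomycin (WT_BLM). Bleomycin breaks DNA, and its instillation into the airways of mice is a common model of lung scarring. Mice of both genotypes were 8 weeks old, and were killed on day 21 after 2 mg/kg bleomycin, given into the trachea in 50 µl of saline. Lungs given saline alone were not analysed here, so no value below compares injured with uninjured lung. The labels give neither the strain nor the design of the deleted allele. Since they do not state that each library is a separate animal, the spread on which the p-values rest may in part be technical.

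Each collagen molecule is a triple helix of chains in which glycine recurs at a fixed spacing. Type I, a heterotrimer of the products of Col1a1 and Col1a2 with more of the Col1a1 chain, and type III, made of the Col3a1 chain alone, form the bulk of lung interstitial fibres. Type V, from Col5a1, Col5a2 and, in some tissues, Col5a3, co-assembles with type I and is needed to start and size its fibrils. Type XI, closely related to type V, and type II are best known from cartilage. Types XXIV and XXVII, encoded by Col24a1 and Col27a1, have slightly shorter helices and are best known from developing bone and cartilage. In injured lung, fibroblasts and the myofibroblasts derived from them are the main makers of types I, III and V.

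The genes lie on 8 chromosomes of GRCm38.p6, with spans given here from RefSeq. Col1a1 is at chr11:94936224-94953042 and Col1a2 at chr6:4505618-4541543. Col2a1 is at chr15:97975602-98004724, Col3a1 at chr1:45311538-45349706 and Col5a1 at chr2:27886381-28039510. Col5a2 is at chr1:45374331-45503282, Col5a3 at chr9:20770050-20815117 and Col11a1 at chr3:114030479-114220756. Col24a1 is at chr3:145292472-145552013 and Col27a1 at chr4:63214009-63334991. Col3a1 and Col5a2 are neighbours in opposite orientation, 24624 bases apart with 0 annotated genes between them. The repeat of the helix shows in the exons. In the longest coding transcript of each gene in GENCODE M21, 47.0% of the 583 coding exons were exactly 54 bases long and 82.9% were a multiple of 9 bases, the length that encodes a Gly-X-Y triplet. Over all 22568 coding genes those shares were 0.67% and 14.5%. By gene, the number of coding exons ran from 51 in Col1a1 and Col3a1 to 67 in Col5a3 and Col11a1, and the number of 54-base exons from 21 in Col1a1 to 33 in Col24a1 and Col27a1. Spans of 4 of the genes (Col2a1, Col5a1, Col24a1 and Col27a1) overlap annotated noncoding genes, none of which is in the count table, and the strand setting of the counting is not given in the sources used here.

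The 250 bases before a transcript start annotated by RefSeq are shown for 4 genes with unlike outcomes in KO_BLM against WT_BLM. They are Col1a2, lower by a large factor, Col3a1, lower by a smaller factor, Col11a1, nearly lost, and Col27a1, which did not pass the test. The sequences are from RefSeq GRCm38.p6, 5′ to 3′ on the plus strand, which is the strand of all 4 genes. Capitals mark matches, on either strand, to CCAAT (the CCAAT box), TATAAA (the TATA box), GGGCGG (the GC box), TGANTCA (an AP-1 motif), CAGACA (a SMAD-type motif) and GGAATG (a TEAD-type motif). The windows are chr6:4505368-4505617 for Col1a2, chr1:45311288-45311537 for Col3a1, chr3:114030290-114030539 for Col11a1 and chr4:63215162-63215411 for Col27a1. The start used for Col27a1 is an internal one, so that its window begins 1153 bases after the start of the gene's span and lies inside it. The last 61 bases of the Col11a1 window also lie inside that gene's span, and 127 bases of the Col1a2 window are exon in another Col1a2 transcript of GENCODE M21.
Col1a2: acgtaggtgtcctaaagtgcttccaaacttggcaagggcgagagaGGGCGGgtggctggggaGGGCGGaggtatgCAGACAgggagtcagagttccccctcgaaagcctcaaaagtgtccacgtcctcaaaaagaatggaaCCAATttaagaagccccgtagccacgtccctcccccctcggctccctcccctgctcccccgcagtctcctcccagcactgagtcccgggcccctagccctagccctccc
Col3a1: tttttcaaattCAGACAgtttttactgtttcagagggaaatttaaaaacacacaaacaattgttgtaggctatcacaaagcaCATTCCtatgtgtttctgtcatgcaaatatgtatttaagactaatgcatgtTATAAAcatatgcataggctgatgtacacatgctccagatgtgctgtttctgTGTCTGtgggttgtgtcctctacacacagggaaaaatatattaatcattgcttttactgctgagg
Col11a1: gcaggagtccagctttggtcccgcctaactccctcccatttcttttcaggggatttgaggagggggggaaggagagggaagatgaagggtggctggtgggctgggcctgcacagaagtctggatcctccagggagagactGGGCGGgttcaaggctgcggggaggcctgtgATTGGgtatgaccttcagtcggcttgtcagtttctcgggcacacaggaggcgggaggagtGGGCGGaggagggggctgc
Col27a1: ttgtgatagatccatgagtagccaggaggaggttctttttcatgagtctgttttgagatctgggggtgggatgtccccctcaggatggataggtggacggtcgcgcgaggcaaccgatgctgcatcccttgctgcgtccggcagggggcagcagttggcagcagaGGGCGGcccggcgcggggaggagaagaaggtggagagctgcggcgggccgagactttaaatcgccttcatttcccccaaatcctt
The Col3a1 window had 35.2% G and C, against 62.0% for Col1a2, 62.4% for Col11a1 and 59.6% for Col27a1. It was also the only window, of the 7 members with an entry in the promoter table, that held TATAAA, which is present in 12.4% of all 32851 promoter windows of that length, or GGAATG, present in 12.6%. GGGCGG was found in 5 of the 7 windows (all except Col3a1 and Col24a1) and in 32.7% of all windows. CCAAT was found in 3 (Col1a2, Col5a3 and Col11a1) and in 33.8% of all windows, and CAGACA in 3 (Col1a2, Col3a1 and Col5a1) and in 17.1%. TGANTCA was in 0 of the 7 windows and in 6.75% of all. No match overlapped another in the 4 windows shown. A match is a run of letters only, and no binding was measured.

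Total counts ran from 17627999 to 18471445 per library in KO_BLM and from 18878835 to 20180831 in WT_BLM. Slc15a3 had 8, 5, 18 and 15 counts in KO_BLM replicates 1 to 4, against 935, 1124, 974 and 841 in WT_BLM replicates 1 to 4, as the labels say. Genes were tested on the counts with edgeR's quasi-likelihood test, and a gene is called lower or higher where its p, adjusted by Benjamini-Hochberg over all 14746 genes that passed a filter on low counts, was under 0.05. Levels are given in CPM, with library sizes scaled by TMM, a normalization against the bulk of genes.

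Transcripts of most of these 10 fibrillar collagen genes were far scarcer in the knockout lungs after bleomycin. Col11a2, a fibrillar chain gene outside the 10, was not called (log2 fold change 0.19, edgeR adjusted p = 0.426) and is not in the counts below. Of the 10 genes, 8 were called lower, 0 higher and 2 (Col2a1 and Col27a1) were not called, where 20.8% of all genes tested were called lower and 20.7% higher, or 41.5% in either direction. Every KO_BLM library was under every WT_BLM library for 9 of the 10, which was so for 20.7% of all genes tested, while 40.9% of them had groups that did not overlap in either direction. Together the 10 genes held 0.259% ± 0.0291 of all counts in KO_BLM and 0.883% ± 0.0490 in WT_BLM (SD, n = 4 each). The median log2 fold change, KO_BLM over WT_BLM, was -2.26 over the 10 genes and 0.0025 over all genes tested, and the middle 90% of all genes lay between -1.07 and 1.20. Col2a1 and Col11a1 reached the filter's level in WT_BLM libraries only, and Col24a1 in the 4 WT_BLM libraries and 2 of the KO_BLM libraries. Of the 7 genes that reached it in all 8 libraries, 6 were called lower. In whole lung, fewer cells of a type and less RNA per cell cannot be told apart. The calls did not depend on any single library: 8 of the 10 were called lower whichever library was left out.

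**Figure D1:**
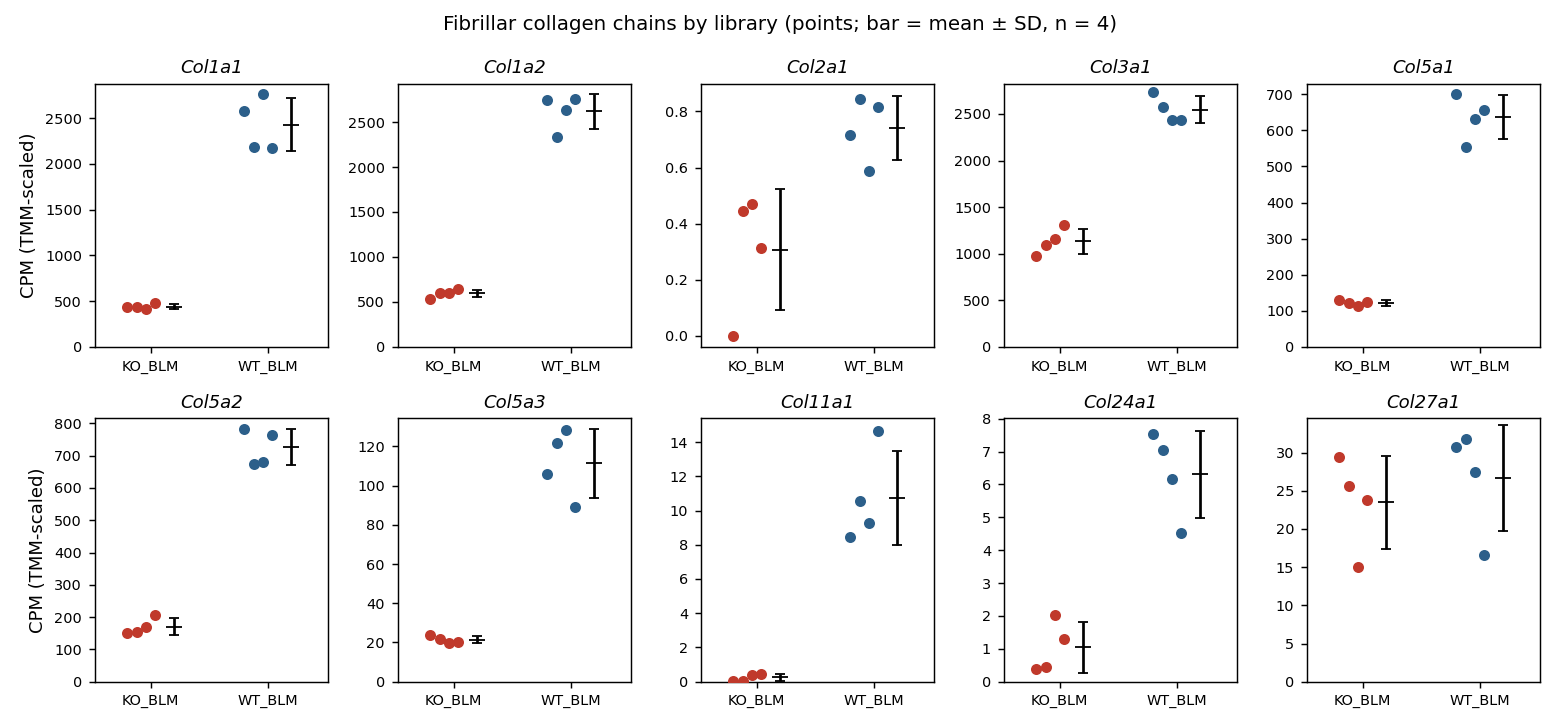
Level of each fibrillar collagen chain gene in each library, in CPM with TMM scaling (linear axes, each with its own range); points are libraries in the order of their replicate numbers, and bars are the mean ± SD of 4 libraries. The KO_BLM points lie under the WT_BLM points in every panel except that of Col27a1.

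Col1a1, the gene of the main type I chain, had 433, 435, 418 and 478 CPM in KO_BLM replicates 1 to 4, against 2583, 2188, 2759 and 2178 CPM in WT_BLM replicates 1 to 4. The highest knockout library lay far under the lowest wild-type one, and the knockout libraries were close to each other. The means were 441 ± 25.8 CPM in KO_BLM and 2427 ± 291 CPM in WT_BLM (SD, n = 4 each), a 5.51-fold lower level (edgeR: log2 fold change -2.46, SE 0.11, adjusted p = 1.35e-06). Col1a2, its partner chain, had 538, 594, 602 and 642 CPM in KO_BLM, against 2748, 2337, 2635 and 2751 CPM in WT_BLM. Again the groups did not overlap, and replicate 4 was the highest knockout library for both type I genes. Col1a2 was 4.41-fold lower (edgeR: log2 fold change -2.14, SE 0.10, adjusted p = 1.55e-06).

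Col3a1, which encodes the only chain of type III, fell less than the type I genes. It had 980.2, 1095, 1161 and 1305 CPM in KO_BLM replicates 1 to 4, against 2737, 2575, 2435 and 2431 CPM in WT_BLM replicates 1 to 4. All knockout libraries lay under all wild-type libraries, at 1135 ± 135 CPM in KO_BLM and 2544 ± 145 CPM in WT_BLM (SD, n = 4 each). The level was 2.24-fold lower (edgeR: log2 fold change -1.16, SE 0.11, adjusted p = 6.37e-05), and 4.34% of all tested genes had a more negative fold change. Of the 8 genes called lower, it had the smallest change.

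The type V genes fell with type I. Col5a1 had 131, 121, 113 and 124 CPM in KO_BLM replicates 1 to 4, against 700.1, 555, 632 and 656 CPM in WT_BLM replicates 1 to 4, and was 5.20-fold lower (edgeR: log2 fold change -2.38, SE 0.10, adjusted p = 9.36e-07). Col5a2, whose chain joins that of Col5a1 in the common form of type V, had 152, 155, 168 and 208 CPM in KO_BLM, against 784, 674, 682 and 765 CPM in WT_BLM. It was 4.25-fold lower (edgeR: log2 fold change -2.09, SE 0.12, adjusted p = 3.81e-06). Col5a3, the chain of more restricted use, was the least abundant of the 3 type V genes in both groups. Its level was 23.9, 22.0, 19.8 and 20.4 CPM in KO_BLM, against 106, 122, 129 and 89.2 CPM in WT_BLM, 5.18-fold lower (edgeR: log2 fold change -2.37, SE 0.13, adjusted p = 2.67e-06). For none of the 3 did the groups overlap, and the Col3a1 neighbour Col5a2 changed by more than Col3a1 did.

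Col11a1, the type XI chain gene that can also mix with type V chains, was nearly undetected in the knockout lungs. It had 1, 1, 8 and 9 counts in KO_BLM replicates 1 to 4, against 154, 213, 173 and 269 counts in WT_BLM replicates 1 to 4. Scaled, these were 0.249 ± 0.225 CPM in KO_BLM and 10.7 ± 2.75 CPM in WT_BLM (SD, n = 4 each). The level was 41.2-fold lower (edgeR: log2 fold change -5.37, SE 0.45, adjusted p = 3.86e-05), and 5 tested genes had a more negative fold change. Col11a1 reached the filter's level in WT_BLM libraries only. It thus entered the test through the group where it was high, which limits what its p and rank can show. With limma on log2(FPKM + 1), where the added 1 exceeds the knockout level, the log2 fold change was -1.17 (adjusted p = 7.24e-05), and on log2(FPKM + 0.1) it was -3.44. The gene of another type XI chain, Col11a2, is also a fibrillar chain gene. It is not one of the 10 and was looked up after the values of Col11a1 were seen. It had 4.86 ± 0.472 CPM in KO_BLM and 4.26 ± 0.751 CPM in WT_BLM (SD, n = 4 each) and was not called (log2 fold change 0.19, edgeR adjusted p = 0.426).

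Col2a1, the gene of the cartilage collagen, was barely present in either group. It had 0, 8, 9 and 6 counts in KO_BLM replicates 1 to 4, against 13, 17, 11 and 15 counts in WT_BLM replicates 1 to 4. Although every knockout count was under every wild-type count, the difference did not pass the test (edgeR: log2 fold change -1.25, SE 0.55, adjusted p = 0.0940). In limma on log2(FPKM + 1) without a filter on low values it did (adjusted p = 0.0387), with a difference of -0.09 on that scale.

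The genes of types XXIV and XXVII parted. Col24a1 had 7, 8, 39 and 25 counts in KO_BLM replicates 1 to 4, against 137, 142, 115 and 83 counts in WT_BLM replicates 1 to 4. The groups did not overlap, but knockout replicates 3 and 4 stood above replicates 1 and 2, as they did for Col11a1. Col24a1 was 5.98-fold lower (edgeR: log2 fold change -2.58, SE 0.44, adjusted p = 0.00180), with a larger standard error than the type I and V genes. In limma on log2(FPKM + 1) without a filter, where the added 1 exceeds the level in both groups, its log2 fold change was -0.66 (adjusted p = 0.00141). Col27a1 had 29.5, 25.6, 15.1 and 23.8 CPM in KO_BLM replicates 1 to 4, against 30.7, 31.8, 27.4 and 16.6 CPM in WT_BLM replicates 1 to 4. Here the groups overlapped, with knockout replicate 3 and wild-type replicate 4 the lowest of their groups. The log2 fold change was -0.18 (SE 0.23, edgeR adjusted p = 0.556). Its counts, 289 to 535 per library in KO_BLM and 305 to 641 in WT_BLM, were far above those of Col2a1.

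**Figure D2:**
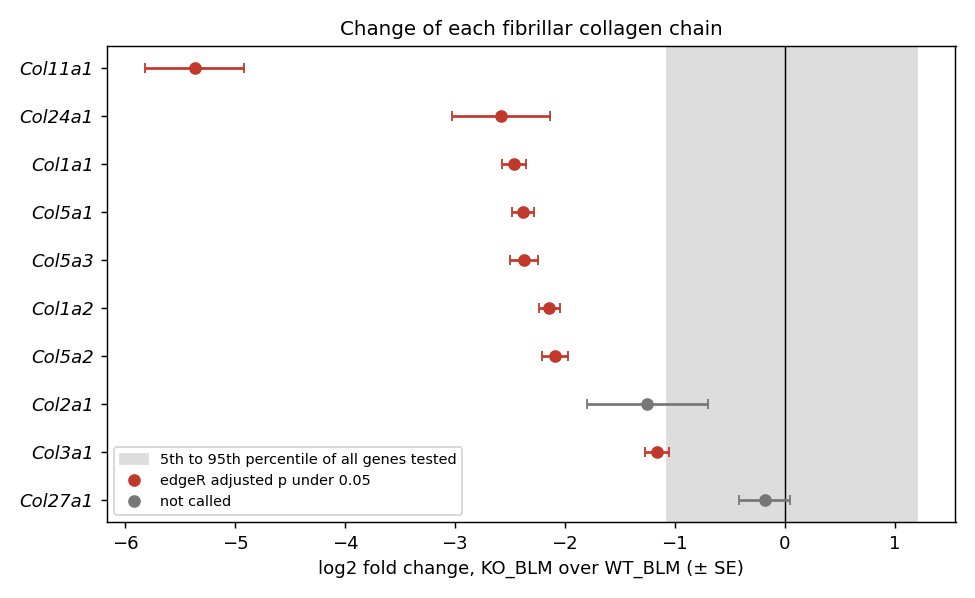
Log2 fold change, KO_BLM over WT_BLM, of each fibrillar collagen chain gene with its standard error from edgeR; the grey band spans the middle 90% of all genes tested. Col11a1 stands farthest to the left at -5.37, 6 genes lie between -2.58 and -2.09, Col3a1 and Col2a1 lie just left of the band, and Col27a1 lies near 0.

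Levels of different chains were compared as FPKM, the count divided by the library's total and by a length per gene. In KO_BLM the most abundant chain was Col3a1 at 211 ± 30.8 FPKM, followed by Col1a2 at 117 ± 11.4 FPKM and Col1a1 at 76.7 ± 6.12 FPKM (SD, n = 4 each). In WT_BLM the same genes had 444 ± 28.5, 486 ± 26.2 and 397 ± 51.7 FPKM (SD, n = 4 each), and Col3a1 overlapped with both others. Thus the ranges of the 3 genes over the libraries were clearly apart in KO_BLM and not in WT_BLM. Within each single library of either group, Col1a2 was above Col1a1. The type V genes came next in both groups, in the order Col5a2, Col5a1, Col5a3. They had 26.7, 14.8 and 3.62 FPKM in KO_BLM, and 106, 72.3 and 17.7 FPKM in WT_BLM. Col27a1, at 3.22 ± 0.794 FPKM in KO_BLM and 3.47 ± 0.962 FPKM in WT_BLM (SD, n = 4 each), overlapped with Col5a3 in the knockout libraries and lay far under it in the wild-type libraries. Col11a1, Col24a1 and Col2a1 were the lowest 3 in both groups, at 0.0339, 0.142 and 0.0541 FPKM in KO_BLM, and 1.35, 0.806 and 0.122 FPKM in WT_BLM.

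As a share of the summed FPKM of all 10 genes, Col3a1 made up 46.4% ± 1.65 in KO_BLM and 29.0% ± 1.81 in WT_BLM (SD, n = 4 each). Col1a1 made up 17.0% ± 0.991 in KO_BLM and 25.9% ± 2.16 in WT_BLM, and Col1a2 25.9% ± 0.661 in KO_BLM and 31.8% ± 1.63 in WT_BLM. The type V genes also held smaller shares in the knockout libraries. Col5a2 held 5.85% in KO_BLM and 6.97% in WT_BLM, Col5a1 3.29% in KO_BLM and 4.73% in WT_BLM, and Col5a3 0.809% in KO_BLM and 1.16% in WT_BLM. Col27a1 held 0.723% ± 0.225 in KO_BLM and 0.226% ± 0.0605 in WT_BLM. Shares add to a whole, so a larger share is not a higher level: Col3a1 itself was lower. The sum they were taken from was 453 ± 51.8 FPKM in KO_BLM and 1529 ± 83.3 FPKM in WT_BLM (SD, n = 4 each).

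**Figure D3:**
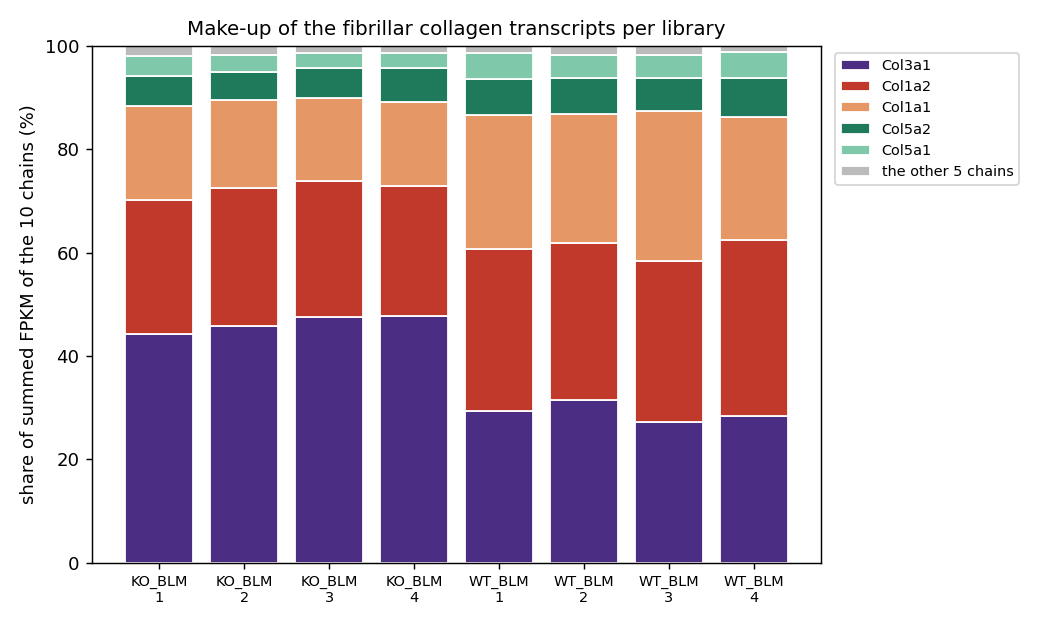
Share of each chain gene in the summed FPKM of the 10 fibrillar collagen genes, in percent, for each library, with the KO_BLM libraries left of the WT_BLM libraries. The Col3a1 block averages 46.4% in KO_BLM and 29.0% in WT_BLM, and the Col1a1 block 17.0% in KO_BLM and 25.9% in WT_BLM.

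Ratios of chains within a library do not depend on how libraries are scaled. For 11 ratios, the per-library log2 ratio of counts was compared by a two-sided exact permutation test over the 70 arrangements of 4 libraries against 4. The smallest p this allows is 0.0286, which over 11 ratios, 5 of them at that p, becomes an adjusted p of 0.0629, so none could pass 0.05 here. A limma fit that moderates the spread over all genes was added after the data were seen, and its p-values are adjusted over the same 11 ratios.

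The ratio of Col3a1 to Col1a1 was 2.41, 2.68, 2.96 and 2.91 in KO_BLM replicates 1 to 4, against 1.13, 1.25, 0.940 and 1.19 in WT_BLM replicates 1 to 4, by FPKM. The groups were well apart, with a log2 difference of 1.28 (exact permutation p = 0.0286, adjusted 0.0629; limma adjusted p = 9.76e-06). The ratio of Col3a1 to Col1a2 was 1.79 ± 0.0904 in KO_BLM and 0.916 ± 0.0899 in WT_BLM (SD), a log2 difference of 0.97 with the same exact permutation p for n = 4 each (limma adjusted p = 3.48e-05). The ratio of Col5a2 to its neighbour Col3a1 was 0.126 ± 0.00696 in KO_BLM and 0.240 ± 0.0184 in WT_BLM (SD, n = 4 each), a log2 difference of -0.93 (limma adjusted p = 1.55e-05). The Col27a1 to Col1a1 ratio was 0.0422 ± 0.0108 in KO_BLM and 0.00871 ± 0.00232 in WT_BLM (SD, n = 4 each), a log2 difference of 2.28 (limma adjusted p = 4.34e-08). The Col11a1 to Col5a1 ratio was 0.00231 ± 0.00211 in KO_BLM and 0.0188 ± 0.00502 in WT_BLM (SD, n = 4 each), a log2 difference of -3.36 (limma adjusted p = 0.000134). In these 5 ratios the groups did not overlap. For the last of them that shows little, because Col11a1 reached the filter's level in WT_BLM libraries only. With 1, 1, 8 and 9 counts of Col11a1 in KO_BLM replicates 1 to 4, its log2 ratio there also leans on the added 0.5. The p of that ratio is limited in the same way.

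None of the 4 ratios within types I and V passed, by the exact test or by limma. Within type I, Col1a1 to Col1a2 was 0.708, 0.644, 0.611 and 0.656 in KO_BLM, against 0.828, 0.825, 0.922 and 0.697 in WT_BLM, by FPKM. The highest knockout library was above the lowest wild-type one, and the log2 difference of -0.32 did not pass (exact permutation p = 0.0571, adjusted 0.105; limma adjusted p = 0.0595, with a 95% interval of the difference from -0.60 to -0.03). Within type V, Col5a1 to Col5a2 was 0.672, 0.608, 0.520 and 0.464 in KO_BLM, against 0.694, 0.640, 0.720 and 0.667 in WT_BLM. Its log2 difference was -0.28 (exact permutation p = 0.0857, adjusted 0.135; limma 95% interval -0.60 to 0.04), and the knockout libraries were spread more widely. The Col5a3 to Col5a1 ratio was 0.245 ± 0.0117 in KO_BLM and 0.247 ± 0.0558 in WT_BLM (SD, n = 4 each), with a log2 difference of 0.01 (exact permutation adjusted p = 0.914; limma 95% interval -0.31 to 0.34). The Col5a3 to Col5a2 ratio was 0.139 ± 0.0285 in KO_BLM and 0.168 ± 0.0377 in WT_BLM (SD, n = 4 each), with a log2 difference of -0.26 (exact permutation adjusted p = 0.432; limma 95% interval -0.67 to 0.14).

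Between type V and type I, Col5a1 to Col1a1 was 0.193 ± 0.0128 in KO_BLM and 0.184 ± 0.0212 in WT_BLM (SD, n = 4 each), with a log2 difference of 0.08 (exact permutation adjusted p = 0.489; limma 95% interval -0.22 to 0.38). Col24a1 to Col1a1 differed by -0.41 on the log2 scale with a wide interval (limma 95% interval -1.29 to 0.47; exact permutation adjusted p = 0.503). These intervals bound the differences, and a p that misses the threshold does not show equal ratios.

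**Figure D4:**
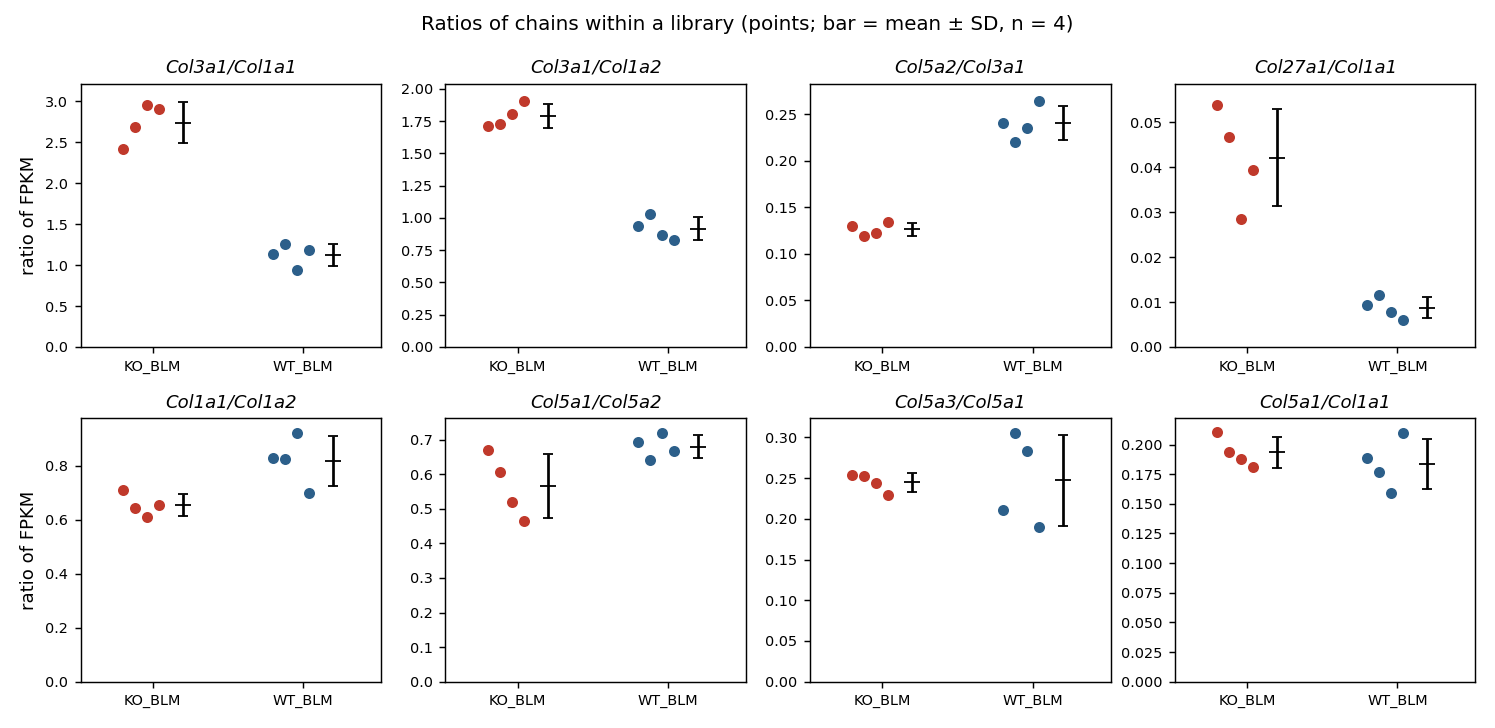
Ratios of FPKM between chain genes within a library, for 8 of the 11 ratios; points are libraries in the order of their replicate numbers, bars are the mean ± SD of 4 libraries, and axes start at 0. In the upper row the groups are apart, with Col3a1 to Col1a1 at 2.74 ± 0.249 in KO_BLM and 1.13 ± 0.135 in WT_BLM, and in the lower row, with 2 chains of a type or Col5a1 and Col1a1, they overlap.

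Other genes were ranked by how closely their log2 CPM profile over the 8 libraries, centred on its own mean, followed that of Col1a1 or Col3a1, among 10728 tested genes that averaged 10 CPM or more. The measure was the root-mean-square difference of the profiles in log2 units, and it includes the difference between the groups. The closest to Col1a1 were Col5a1 (0.124), Cd248 (0.160), Col5a3 (0.169), Rtn4rl2 (0.172) and Zfp469 (0.186), so that 2 of the 5 were type V chain genes. Cd248 encodes endosialin, a surface protein of fibroblasts and pericytes, and averaged 13.1 ± 0.538 CPM in KO_BLM and 61.5 ± 9.73 CPM in WT_BLM (SD, n = 4 each). ZNF469, the human counterpart of Zfp469, is the gene of a brittle cornea syndrome. Col3a1 had a different set of closest genes, namely Kdelr3 (0.0715), Fzd1 (0.101), Runx1 (0.104), Dab2 (0.110) and Lmna (0.110), with 0 fibrillar collagens among them. Kdelr3, a receptor that returns resident proteins to the endoplasmic reticulum, averaged 25.3 ± 3.08 CPM in KO_BLM and 58.3 ± 3.62 CPM in WT_BLM (SD, n = 4 each). Among the 10 genes themselves, Col1a2 and Col5a2 differed by 0.0937, the smallest value of any pair.

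The genes that make, assemble, bind and break down fibrillar collagen were mostly lower too, but by less. Over 7 lists of 77 genes in all, 73 were tested, of which 47 were called lower and 8 higher, with a median log2 fold change of -0.58 against 0.0025 over all genes tested. The counts in this and the other lists stand beside 20.8% of all genes tested called lower and 20.7% called higher. The lists were chosen with earlier results of these data known, so this is no unbiased contrast. Fap and Mrc2 each stand in 2 of the lists. Of the 14 genes of chain hydroxylation and glycosylation, 7 were lower, 2 higher and 5 not called (median -0.32). P4ha3, a prolyl 4-hydroxylase subunit, had 4.51 ± 0.330 CPM in KO_BLM and 37.5 ± 4.43 CPM in WT_BLM (SD, n = 4 each), 8.30-fold lower (edgeR adjusted p = 9.36e-07). P3h1 and Crtap, partners in the complex that 3-hydroxylates proline, were both lower (log2 fold change -1.06 and -0.68), and Plod1, a lysyl hydroxylase, was 1.64-fold lower. The 2 that rose were P4ha1, the widely expressed prolyl 4-hydroxylase subunit, by 1.68-fold, and Colgalt2, a collagen galactosyltransferase, with 17.6 ± 3.97 CPM in KO_BLM and 6.59 ± 1.42 CPM in WT_BLM (SD, n = 4 each).

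Of the 14 genes of folding and export, 9 were lower, 1 higher and 4 not called (median -0.40). Fkbp10, a prolyl isomerase of the endoplasmic reticulum, was 3.33-fold lower (44.8 ± 4.79 CPM in KO_BLM and 149 ± 5.47 CPM in WT_BLM, SD, n = 4 each; edgeR adjusted p = 2.67e-06). Sec23a and Sec24d, coat proteins of the vesicles that carry procollagen out, were both lower (log2 fold change -0.58 and -0.44), and Fkbp7 was 1.51-fold lower. Larp6, which binds the messenger RNAs of type I collagen, was 1.83-fold lower. The collagen chaperone gene Serpinh1 (HSP47) had 686 ± 173 CPM in KO_BLM and 736 ± 133 CPM in WT_BLM (SD, n = 4 each) and was not called. The 1 gene called higher was Hspa5, a general chaperone (log2 fold change 0.55, edgeR adjusted p = 0.0493), and it was not called in 7 of the 8 fits that left out a library.

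Of 7 tested genes of the proteinases that cut procollagen and their enhancers, 5 were lower, 1 higher and 1 not called (median -0.70). Bmp1, the C-proteinase, was 1.78-fold lower, and the N-proteinases Adamts2 and Adamts14 were 2.13-fold and 2.30-fold lower. Pcolce2, an enhancer of C-proteinase activity, went the other way, at 205 ± 48.0 CPM in KO_BLM and 47.8 ± 5.28 CPM in WT_BLM (SD, n = 4 each), 4.29-fold higher (edgeR adjusted p = 2.72e-05). The related enhancer gene Pcolce, at 202 ± 10.2 CPM in KO_BLM and 201 ± 19.7 CPM in WT_BLM (SD, n = 4 each), was not called. Cross-linking and fibril assembly had 13 of 16 genes lower and 2 higher (median -1.01). Fn1, fibronectin, on which collagen fibrils are laid down, was 6.21-fold lower. Fmod, a fibril-binding proteoglycan, was 5.66-fold lower, Lox, the lysyl oxidase, 5.17-fold, Loxl2 3.40-fold and Loxl3 3.04-fold. The 2 that rose were Tnxb, a tenascin, by 2.65-fold, and Dpt, dermatopontin, by 1.20-fold, and Dpt was not called in 5 of the 8 fits that left out a library.

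Of 6 tested fibril-associated collagens, 3 were lower and 0 higher (median -0.36). Col12a1 was 2.59-fold and Col16a1 1.82-fold lower. Col22a1 was 2.37-fold lower (edgeR adjusted p = 0.0335) at about 1 CPM or less, and lost its call in 5 of the 8 fits that left out a library. All 8 genes of uptake and breakdown were lower (median -1.29), among them the membrane collagenase Mmp14 by 3.49-fold, Mmp8 by 3.50-fold, Mmp13 by 3.28-fold and Mmp2 by 1.88-fold. The lysosomal protease gene Ctsk was 3.16-fold lower (edgeR adjusted p = 0.0114), but its groups overlapped. It had 75.6 ± 36.1 CPM in KO_BLM and 240 ± 126 CPM in WT_BLM (SD, n = 4 each). Of 10 receptors, 4 were lower, 2 higher and 4 not called (median -0.09), so that the higher calls were near the share over all genes. The integrin gene Itga11 was 3.31-fold lower, whereas Itga1, which pairs with the same beta chain, was 1.67-fold higher and the platelet receptor gene Gp6 3.29-fold higher, at 1.81 CPM in KO_BLM and 0.551 CPM in WT_BLM.

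**Figure D5:**
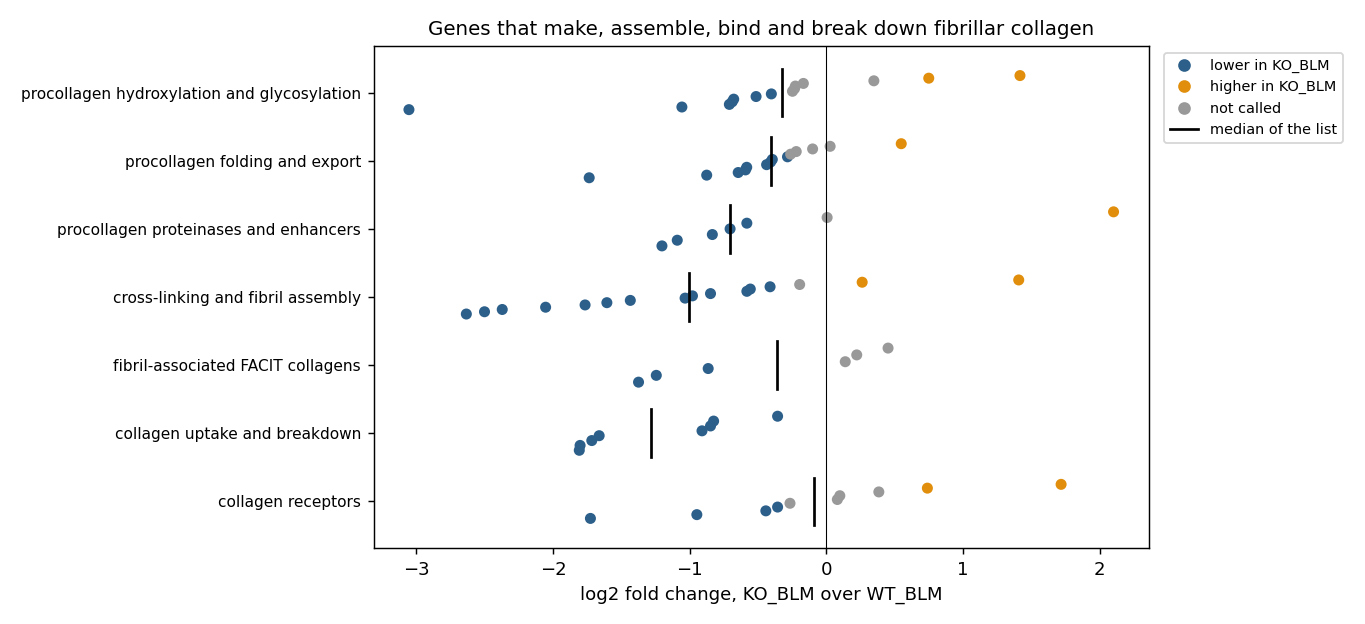
Log2 fold change, KO_BLM over WT_BLM, of each tested gene in 7 lists of genes that act on fibrillar collagen; colours give the edgeR call and black bars the list medians. All 8 genes of uptake and breakdown lie left of 0, and the receptors lie on both sides.

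Marker lists of the cells that make collagen did not all move the same way. All 8 markers of activated fibroblasts and myofibroblasts were lower, and their summed level was 719 to 817 CPM in KO_BLM and 1811 to 2098 CPM in WT_BLM. Cthrc1 was 7.80-fold, Tnc 8.19-fold and Acta2 2.37-fold lower. Lrrc15, which reached the filter's level in WT_BLM libraries only and so was bound to differ, had 4, 4, 5 and 6 counts in KO_BLM replicates 1 to 4, against 86, 134, 131 and 177 counts in WT_BLM replicates 1 to 4. Of 10 fibroblast markers, 3 were lower and 5 higher, with a summed level of 2191 to 3515 CPM in KO_BLM and 1307 to 1896 CPM in WT_BLM, most of it Inmt, Npnt and Pdgfra. Inmt alone had 1347 ± 460 CPM in KO_BLM and 298 ± 78.9 CPM in WT_BLM (SD, n = 4 each), 4.52-fold higher. The others called higher were Npnt, Tcf21, Pi16 and Scara5 (log2 fold change 0.77, 1.69, 0.65 and 0.91). The 3 called lower were Dcn, Lum and Mfap5 (log2 fold change -0.58, -1.43 and -0.56). The groups overlapped for Pi16, Scara5 and Dcn. Pdgfra, at 329 ± 66.1 CPM in KO_BLM and 403 ± 89.5 CPM in WT_BLM (SD, n = 4 each), was not called. Smooth muscle markers summed to 454 to 633 CPM in KO_BLM and 912 to 1052 CPM in WT_BLM (3 of 7 lower, 1 higher, 3 not called). The largest part was Acta2, also in the activated fibroblast list, at 209 ± 20.4 CPM in KO_BLM and 495 ± 18.8 CPM in WT_BLM (SD, n = 4 each). Pericyte markers summed to 356 to 585 CPM in KO_BLM and 641 to 734 CPM in WT_BLM (3 of 8 lower, 1 higher, 4 not called). Their largest part was Pdgfrb, at 217 ± 48.4 CPM in KO_BLM and 385 ± 22.8 CPM in WT_BLM (SD, n = 4 each). Lung epithelial markers, the surfactant gene Sftpc among them, were abundant in every library and summed to 32573 to 51269 CPM in KO_BLM and 12655 to 22259 CPM in WT_BLM (4 of 8 higher, 0 lower), endothelial markers to 1993 to 3145 CPM in KO_BLM and 1557 to 2057 CPM in WT_BLM (4 of 6 higher, 0 lower), and leukocyte markers to 6921 to 9469 CPM in KO_BLM and 4532 to 5599 CPM in WT_BLM (4 of 8 higher, 3 lower). Mesothelial markers overlapped between the groups, at 484 to 612 CPM in KO_BLM and 542 to 814 CPM in WT_BLM (1 of 6 higher and 2 lower, near the shares over all genes). The part of these in the collagen values was not tested.

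Chondrocyte and bone cell markers, looked at for the cartilage and bone collagens, were low. Of 11 chondrocyte markers, 10 were in the table and 5 were tested. The 5 that were not tested averaged under 0.5 CPM in both groups, among them Acan, the gene of the main cartilage proteoglycan, at 0.0391 CPM in KO_BLM and 0.282 CPM in WT_BLM. Of those tested, 2 were lower, namely Hapln1 by 2.02-fold and Sox9, the chondrocyte regulator, at 0.388 ± 0.1004 CPM in KO_BLM and 2.57 ± 0.858 CPM in WT_BLM (SD, n = 4 each). The Hapln1 log2 fold change of -1.01 lost its call without KO_BLM replicate 2 (-0.98, edgeR adjusted p = 0.0528) or WT_BLM replicate 1 (-0.82, edgeR adjusted p = 0.0562). The 2 that were higher were Chad, at 10.53 ± 3.80 CPM in KO_BLM and 1.09 ± 0.510 CPM in WT_BLM, and Cytl1, at 14.6 ± 1.43 CPM in KO_BLM and 2.70 ± 0.964 CPM in WT_BLM (SD, n = 4 each). Their rise carried the list's summed level, which was 21.7 to 32.3 CPM in KO_BLM and 8.78 to 11.9 CPM in WT_BLM. Bone cell markers summed to 16.9 to 20.2 CPM in KO_BLM and 19.9 to 27.0 CPM in WT_BLM, with 4 of 8 tested. Most of that sum was Alpl and Phex, neither of which was called. The 1 called lower was Dmp1, a matrix protein gene of bone and dentin, with 0, 0, 0 and 1 counts in KO_BLM replicates 1 to 4, against 39, 56, 50 and 22 counts in WT_BLM replicates 1 to 4 (edgeR adjusted p = 7.56e-05). Like Col11a1, it reached the filter's level in WT_BLM libraries only, and so entered the test through the group where it was high. The part of these markers in the collagen values was not tested.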

How the data were processed

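Groups and replicate numbers came from the sample titles. Members and gene lists were chosen with earlier results of these data known. The labels' protocols name TRIzol extraction and a stranded TruSeq mRNA kit. Read counts per gene were deposited as whole numbers without normalization. Trimmomatic, HTSeq, Cufflinks, DESeq and the mm10 build appear in the submitters' processing notes, with no roles, and with the aligner and annotation not given in the sources used here. The deposited FPKM values equalled the count over the column total and 1 length per gene (100% within a relative tolerance of 1e-06), so they are no independent measurement.

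Counts were tested with edgeR 4.0.16 in R 4.3.3: filterByExpr (minimum count 10, minimum total 15), TMM factors and a robust quasi-likelihood fit, tested first on simulated data. Ratios used counts plus 0.5. Within a group, no 2 libraries were alike within sampling noise (chi-square over its degrees of freedom 7.24 to 55.7). Replicates 1 and 2 of KO_BLM were the closest pair, at 7.24, and the next was WT_BLM replicates 1 and 3, at 15.1. Named genes were all 10 members, up to 4 genes of smallest p per pathway list, the 5 closest profiles, and called or abundant markers. Lox, P4ha1, Colgalt2, Serpinh1, Larp6, Ctsk, Tnxb, Dpt, Hspa5, Pcolce, Acan and Col11a2 fall outside that rule and were picked with their values known. As alternatives, the fits used RLE factors, library totals, no filter or a strict one, DESeq2 1.42.0, limma 3.58.1 on voom and on FPKM values, a replicate block, scaling without the 10 genes, and 7 of the 8 libraries.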

Additional observations from a re-analysis of the deposited data

Results flagged for a closer look

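Among 166 groups of 4 libraries examined, 4 had a library far from the other 3, where chance flags about 1 in 20 groups. Zfp469, one of the closest profiles to Col1a1, had 6.05 CPM in KO_BLM replicate 3, against 5.16 to 5.29 CPM in the other KO_BLM libraries, and the gap made up 0.857 of the group's range. All 4 WT_BLM libraries were at 25.4 CPM or more. Tnc, a marker of activated fibroblasts, had 718 CPM in WT_BLM replicate 2, against 483 to 506 CPM in the other WT_BLM libraries, with a gap of 0.900 of the range. Its KO_BLM libraries lay between 38.3 and 103 CPM. Dmp1, a bone matrix gene, had its 1 knockout count, 0.0521 CPM, in KO_BLM replicate 4 and 0 in the other KO_BLM libraries, against 1.20 to 2.78 CPM in WT_BLM. Pcolce, a procollagen proteinase enhancer, had 187 CPM in KO_BLM replicate 4, with a gap of 0.889 of the range to the other KO_BLM libraries. No fibrillar collagen chain gene was flagged in this way.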

How the results depend on the processing

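The count of chain genes called lower lay between 7 and 9 over all alternatives and was 8 in every fit that left out a library, and none was called higher. The 7 came from fits whose filter dropped low genes. Over all genes, 3061 were called lower in the edgeR fit, against 2005 in limma on log2(FPKM + 1), 1998 on log2(FPKM + 0.1) and 2178 to 2896 with a library left out. Higher calls made up 50.0% of calls in the edgeR fit, 62.7% with library totals alone, and 61.9%, 61.8% and 63.1% in limma on log2(FPKM + 1), log2(FPKM + 0.1) and log2(FPKM + 1) without a filter, where the cause was not tested. Serpinh1, not called, changed sign without KO_BLM replicate 3, with a range of -0.28 to 0.0183 over the fits without a library. Pcolce (-0.0487 to 0.0657) and Phex (-0.234 to 0.122), neither called, changed sign in some of the fits without a library. Phex was also above 0 when scaled by library totals alone (0.0477), and by limma on log2(FPKM + 1), with a filter or without (0.0206), and on log2(FPKM + 0.1) (0.0278). In limma over all genes, 5 ratios passed the threshold that the exact test could not reach: Col3a1/Col1a1 (1.28), Col3a1/Col1a2 (0.97), Col5a2/Col3a1 (-0.93), Col11a1/Col5a1 (-3.36) and Col27a1/Col1a1 (2.28). Of these, Col11a1/Col5a1 rests on a gene that reached the filter's level in WT_BLM libraries only, which limits what its pass can show. As shares of summed counts in place of FPKM, Col1a2 held 23.7% in KO_BLM and 28.7% in WT_BLM, Col5a1 4.91% in KO_BLM and 6.97% in WT_BLM, and Col5a2 6.78% in KO_BLM and 7.98% in WT_BLM, while in WT_BLM Col11a1 held 0.119%, Col24a1 0.0693% and Col27a1 0.293%. Same-numbered libraries deviated from their group means with correlations of 0.119, -0.018, -0.00088 and -0.079. These lay within the range of differently numbered libraries, -0.152 to 0.135. They show no pairing, but cannot exclude that same-numbered samples share more than a number. With the replicate block, 2824 genes were called lower and 2878 higher, and 8 chain genes lower. Depth limits Col2a1, Col11a1 and Col24a1, whose knockout counts were 0 to 39 per library.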
